A study of Mus musculus with 9 samples.

Results

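The 9 genes described here encode the enzymes that make, sense and break down cyclic nucleotides in smooth muscle: the adenylyl cyclases Adcy3 and Adcy6, the kinases Prkaca and Prkg1, and the phosphodiesterases Pde1a, Pde3a, Pde4b, Pde4d and Pde5a. They were chosen by name from 21853 protein-coding genes, and every H3K27ac or H3K4me1 peak within a gene body or 25 kb to either side was taken. The rule itself uses no measured value, though the genes were proposed with earlier results of these data known. The chromatin came from WT mice aged 8 to 12 weeks on D2 of pregnancy, whose oviductal muscle cells were digested from the tissue, cultured for 4 h and, after a change of medium, for 2 h, and used at 50000 cells per library. ChIC-Seq, in which an antibody directs MNase to cut chromatin beside a histone mark, was done with 3 replicates of H3K27ac, 3 of H3K4me1 and 3 of control IgG. All groups share the genotype, the day of pregnancy and the culture, and there is no comparison with another day, another tissue or a treatment. No label says whether the replicates came from separate or pooled animals, so the spread between them may be technical.

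Cyclic AMP and cyclic GMP relax smooth muscle. Adenylyl cyclases make cAMP downstream of G protein-coupled receptors, protein kinase A carries its signal, and cGMP formed in response to nitric oxide or natriuretic peptides acts through the cGMP-dependent kinase encoded by Prkg1. Phosphodiesterases end both signals, and the families differ in substrate and in regulation. In the oviduct, relaxation and contraction of the muscle layer move the embryo toward the uterus. H3K4me1 is found at enhancers and beside promoters, and H3K27ac marks active promoters and active enhancers.

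Each mark was read from 1 list of peaks per replicate and 1 list called on the pooled replicates. The treatment libraries held 40551842 to 78891920 fragments and the IgG libraries 3110985 to 3713369, and each call was scaled down to its IgG library. The lists were permissive, since the authors' p-value cutoffs for calling were 0.05 (strong regions) and 0.1 (weak regions). Peaks whose −log10 p, as deposited, reached 1.3 are called stronger peaks here. They made up 5.46% to 8.71% of the peaks at the 9 loci in the replicate lists, against 11.1% to 19.0% of all peaks in those lists. The H3K27ac replicates 2 and 3 shared an IgG control with H3K4me1 lists (H3K4me1 replicates 1 and 2, and H3K4me1 replicate 3), and H3K27ac replicate 1 had its own. A promoter peak in all 3 H3K27ac lists was found for 3 of 8 smooth muscle markers (Acta2, Des and Smtn), for 6 of 6 fibroblast and stromal markers (Pdgfra, Dcn, Lum, Col1a1, Col3a1 and Vim), for 0 of 7 epithelial and 0 of 4 endothelial markers, and for 1 of 5 blood cell markers (Ptprc). Myh11, the smooth muscle myosin heavy chain, had a promoter peak in 0 of 3 H3K27ac and 1 of 3 H3K4me1 lists. The smooth muscle share by H3K27ac was below that of all protein-coding genes (37.5%, against 45.9%), whereas by H3K4me1 it was 4 of 8 (50.0%, against 27.9%) and by all 6 lists 3 of 8 (37.5%, against 24.3%). Among stronger peaks, Smtn was left for H3K27ac (1 of 8, against 30.2%) and none for H3K4me1 (0 of 8, against 5.03%). The fibroblast and stromal markers were at 5 of 6 by H3K4me1 and 5 of 6 by all 6 lists. Among stronger peaks they were at 4 of 6 by H3K27ac and 2 of 6 by H3K4me1. Each of these shares was above that of the smooth muscle markers. The promoter marks thus gave no single answer on the label of smooth muscle, and the part of other cell types in the values below was not tested.

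The sequences at the start sites that carried, or lacked, the marks are shown first. A start window is 1 kb either side of the start of a protein-coding transcript, with overlapping windows joined, and the 9 genes have 32 of them. The 250 bases upstream of 6 starts were read from RefSeq's GRCm38.p6 genome, 5′ to 3′ on the gene's strand. Prkaca-201 had a peak in every H3K27ac list, and the Prkg1 starts are those of the alpha and beta isoforms of the kinase. Pde5a-201, Pde4b-203 and Pde4d-218 had a peak in the start window in all 6 replicate lists, which need not cover the printed bases. Capitals mark the CRE core (TGACG), a motif of the CREB family that responds to cAMP, and also the GC box (GGGCGG), and the TEAD motif (CATTCC), each on either strand. In Pde4d-218 the GC box and a TEAD motif overlap, and Pde5a-201 and Pde4b-203 hold none of these motifs.
Prkaca-201 upstream, chr8:83972743-83972992, plus strand: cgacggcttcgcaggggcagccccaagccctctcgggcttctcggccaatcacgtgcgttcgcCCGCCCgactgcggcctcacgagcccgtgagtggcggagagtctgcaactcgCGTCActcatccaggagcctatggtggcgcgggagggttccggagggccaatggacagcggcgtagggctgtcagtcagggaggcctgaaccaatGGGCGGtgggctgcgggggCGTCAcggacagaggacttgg
Prkg1 alpha upstream, chr19:31765034-31765283, minus strand: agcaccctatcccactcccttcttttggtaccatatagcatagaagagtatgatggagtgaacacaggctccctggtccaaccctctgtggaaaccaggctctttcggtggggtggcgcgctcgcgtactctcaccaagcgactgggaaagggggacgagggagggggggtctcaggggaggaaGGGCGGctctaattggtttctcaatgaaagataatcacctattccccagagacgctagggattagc
Prkg1 beta upstream, chr19:31664371-31664620, minus strand: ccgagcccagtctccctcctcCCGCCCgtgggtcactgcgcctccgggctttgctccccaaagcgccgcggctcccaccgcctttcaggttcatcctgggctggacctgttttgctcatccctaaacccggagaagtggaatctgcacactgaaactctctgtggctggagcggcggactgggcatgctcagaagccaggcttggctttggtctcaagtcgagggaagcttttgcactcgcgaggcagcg
Pde5a-201 upstream, chr3:122728697-122728946, plus strand: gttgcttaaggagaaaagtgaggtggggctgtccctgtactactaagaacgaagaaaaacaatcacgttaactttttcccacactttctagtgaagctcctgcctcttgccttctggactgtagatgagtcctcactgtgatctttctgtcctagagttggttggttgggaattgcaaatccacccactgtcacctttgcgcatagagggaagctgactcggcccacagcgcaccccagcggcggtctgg
Pde4b-203 upstream, chr4:102569845-102570094, plus strand: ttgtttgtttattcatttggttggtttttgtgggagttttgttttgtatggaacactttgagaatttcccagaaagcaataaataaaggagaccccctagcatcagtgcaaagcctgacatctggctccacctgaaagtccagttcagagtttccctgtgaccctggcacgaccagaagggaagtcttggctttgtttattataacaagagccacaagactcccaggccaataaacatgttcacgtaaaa
Pde4d-218 upstream, chr13:109260404-109260653, plus strand: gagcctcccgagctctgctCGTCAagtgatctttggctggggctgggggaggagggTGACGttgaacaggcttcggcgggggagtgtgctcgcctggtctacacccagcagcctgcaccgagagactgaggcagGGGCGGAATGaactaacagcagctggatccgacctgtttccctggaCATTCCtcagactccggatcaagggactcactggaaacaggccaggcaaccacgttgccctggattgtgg

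Of the 32 upstream windows, 5 held a CRE core (15.6%), against 17.2% of 30934 such windows of all protein-coding genes. The full CRE (TGACGTCA) was in 0 of the 32, against 1.59% of all. A GC box was in 9 (28.1%, against 31.9%), the AP-1 motif (TGANTCA) in 3 (9.38%, against 6.47%), the TEAD motif in 3 (9.38%, against 11.9%), the E box (CANNTG, not in capitals) in 22 (68.8%, against 66.6%), and the CArG box of the serum response factor in 0 (against 1.3%). These are matches of letters only. The Prkaca-201 sequence held 2 CRE cores, 135 and 21 bases before the start, and 25 CpG dinucleotides. The sequence of the beta start of Prkg1 held 16 CpG and that of the alpha start 9, while Pde4b-203, marked in all 6 lists, held 2. The median was 5 over all protein-coding starts, 7 over the 8 starts of these genes marked in all 6 lists, and 2 over the 7 with no H3K27ac peak, where the range of 1 to 20 overlapped the 2 to 34 of the marked ones. A start counted as marked by a peak anywhere in its window, so the 250 bases need not be covered. Those of Pde4d-204, among the 8, had 0 covered bases in every list. Those of Pde4b-203 had 0 in replicate 1 of both marks.

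The adenylyl cyclases had few peaks. Adcy3 (ENSMUSG00000020654.15, chr12:4133103-4213525, plus strand), a cyclase best known for odorant signaling, had the lowest mean coverage of the 9 genes for both marks. H3K27ac peaks covered 0.615%, 0.979% and 0% of its body in replicates 1, 2 and 3, and H3K4me1 peaks covered 1.31%, 1.38% and 1.14%. Every H3K4me1 list was above every H3K27ac list, though all values were close to 1% or lower, and with stronger peaks only H3K27ac was at 0% and H3K4me1 at a mean of 0.0966% (exact permutation p = 1). Its only start window had an H3K27ac peak in replicate 1, with 18.9% of the window covered, and no H3K4me1 peak. Its highest pooled H3K27ac peak lay in the flank (chr12:4232540-4235074, fold enrichment 2.19), near the promoters of the neighbouring genes Cenpo and Ptrhd1. Among the 4986 protein-coding genes of at least 50 kb, Adcy3 stood at percentiles 0 to 24.1 for H3K27ac and 20.4 to 24.1 for H3K4me1. Its highest pooled H3K4me1 peak (chr12:4135213-4135869, fold enrichment 2.28) lay just inside the gene, beyond the start window.

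Adcy6 (ENSMUSG00000022994.9, chr15:98589973-98610076, minus strand), a calcium-inhibited cyclase found in vascular smooth muscle and heart, was marked around its 5′ end. H3K27ac covered 9.59%, 18.0% and 16.7% of the gene in replicates 1, 2 and 3 and H3K4me1 covered 16.9%, 12.8% and 5.24%, so the marks overlapped (exact permutation p = 0.6). By stronger peaks the ranges did not overlap, at means of 11.8% and 3.07% (a difference of 8.75 points, against 3.13, exact permutation p = 0.1). The outermost start had a peak in all 3 H3K27ac lists and in no H3K4me1 list, the only window of the 32 with this pattern. The next start 2.44 kb inward had a peak in 3 H3K27ac and 2 H3K4me1 lists, and the third 5.35 kb inward in 0 and 2. When the gene was cut into 4 equal parts along transcription, part 1 was covered to 40.0 ± 16.1% by H3K27ac and 12.3 ± 10.7% by H3K4me1 (SD, n = 3), and part 2 to 19.0 ± 3.71% and 34.2 ± 14.7%. Parts 3 and 4 had no peak in any list. The flank downstream, which holds the promoter of Ccnt1, was covered to 15.3 ± 1.99% by H3K27ac, and the highest pooled peaks of the locus lay there for both marks.

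Prkaca (ENSMUSG00000005469.10, chr8:83972993-83996443, plus strand) encodes the catalytic subunit alpha of protein kinase A. Its main start, Prkaca-201, was covered by H3K27ac in all lists, over 64.0%, 85.7% and 56.4% of the window, and by H3K4me1 in replicate 3 only, over 17.7%. The 250 bases printed above were covered whole by each H3K27ac list and not at all by H3K4me1. At the other start, Prkaca-202, 3.89 kb inward, the order was the reverse, with 0 H3K27ac and 2 H3K4me1 lists. Over the gene, H3K27ac covered 5.64%, 7.19% and 2.66% and H3K4me1 covered 3.00%, 2.30% and 0%, and the ranges overlapped (exact permutation p = 0.2). Of 4 equal parts of the gene, parts 2 and 3 had no peak in any list. The highest pooled H3K27ac peak (chr8:83996103-83996954, fold enrichment 2.54) lay across the 3′ end of the gene, next to the downstream flank with the promoters of Samd1 and Palm3.

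Prkg1 (ENSMUSG00000052920.15, chr19:30564489-31765033, minus strand) spans 1201 kb and encodes the cGMP-dependent kinase I that lowers calcium sensitivity in smooth muscle. H3K27ac covered 7.84%, 3.96% and 4.4% of the body and H3K4me1 covered 9.82%, 6.73% and 5.99%, with overlapping ranges (exact permutation p = 0.3; with stronger peaks only the means were 0.106% and 0.338%, without overlap), at percentiles 48.6 to 58.8 and 49.7 to 61.3 of the long genes. The start of the alpha isoform had an H3K27ac peak in replicate 2 only and H3K4me1 peaks in replicates 2 and 3. The start of the beta isoform, 101 kb inward, had H3K27ac peaks in replicates 1 and 3 and H3K4me1 peaks in all 3. Every H3K27ac list thus marked 1 of these starts, but no single start was marked in all of them, and neither carried a stronger peak in any replicate. The remaining start, 1191 kb inward, had no peak. Coverage by H3K4me1 lay toward the 5′ end, at 11.7 ± 2.69% and 11.1 ± 1.52% in parts 1 and 2 of 4 and 2.69 ± 1.10% and 4.52 ± 3.12% in parts 3 and 4 (SD, n = 3). In each H3K4me1 list parts 1 and 2 were above parts 3 and 4. For H3K27ac the 4 values were 7.13 ± 3.33%, 6.81 ± 2.66%, 2.96 ± 1.72% and 4.69 ± 0.948% (SD, n = 3). The highest pooled peaks were at chr19:31082357-31083423 for H3K27ac (fold enrichment 2.26) and chr19:31527713-31532369 for H3K4me1 (fold enrichment 2.27), both within the gene. The 25 kb beyond the 3′ end, toward Dkk1, had no peak in any replicate list.

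**Figure D1:**
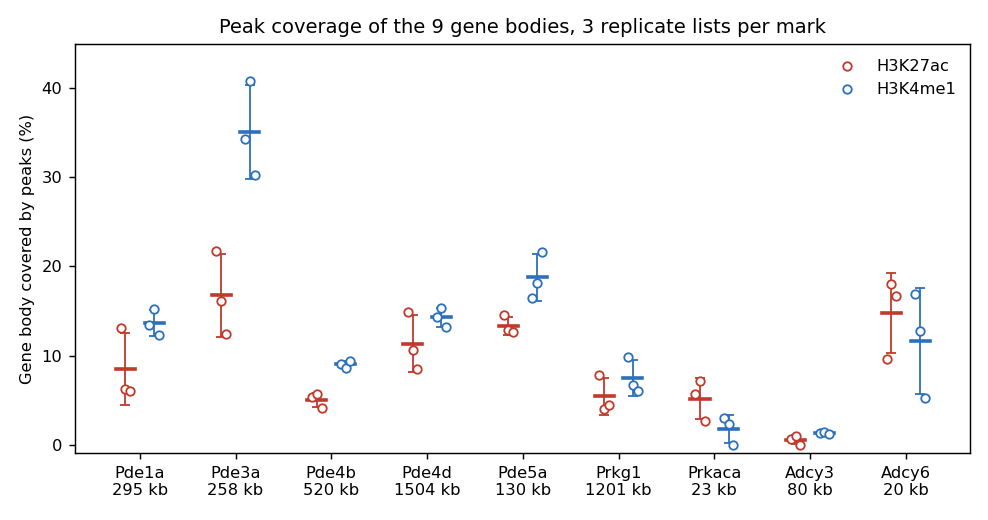
Share of each gene body covered by peaks (percent, vertical axis) for the 9 genes with their lengths. Points are the 3 replicate lists of H3K27ac (red) and H3K4me1 (blue), bars the mean and whiskers the SD; Pde3a is highest for H3K4me1 at 30.3% to 40.8% and Adcy3 has the lowest mean, with lists at 1.14% to 1.38%.

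Among the phosphodiesterases, and among all 9 genes, Pde3a (ENSMUSG00000041741.10, chr6:141249269-141507448, plus strand) had the largest share of its body under H3K4me1 peaks in every list. It encodes a phosphodiesterase that hydrolyses cAMP and is inhibited by cGMP, and so links the signals. H3K4me1 peaks covered 34.3%, 40.8% and 30.3% of its body and H3K27ac peaks 21.7%, 16.1% and 12.4%. Every H3K4me1 list lay above every H3K27ac list, with a mean difference of H3K27ac minus H3K4me1 of -18.4 percentage points (exact permutation p = 0.1, adjusted p = 0.225 over the 9 genes), and the percentiles among long genes were 92.3 to 96.2 for H3K4me1 and 83.3 to 88.2 for H3K27ac. H3K4me1 was spread along the gene, at 37.9%, 39.1%, 40.3% and 23.3% in parts 1 to 4. The single start window had a peak in all 6 lists. H3K27ac covered 53.8%, 100% and 100% of it and H3K4me1 only 13.6%, 20.5% and 8.65%. Of the H3K27ac bases held in at least 2 of 3 replicates, 81.8% were also covered by H3K4me1, whereas 28.4% of the H3K4me1 bases had H3K27ac.

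Pde5a (ENSMUSG00000053965.10, chr3:122728947-122859374, plus strand), the cGMP-specific enzyme inhibited by sildenafil, came next by mean H3K4me1 coverage, though Adcy6 was higher in replicate 1. H3K4me1 covered 16.5%, 18.2% and 21.7% of its body and H3K27ac 14.5%, 12.9% and 12.7%, and the marks did not overlap (exact permutation p = 0.1, adjusted p = 0.225). Limited to stronger peaks they overlapped, at means of 3.04% and 2.92%, and the difference of H3K27ac minus H3K4me1 fell from -5.44 to -0.115 points (exact permutation p = 0.9). The start window had a peak in all 6 lists, with 50.5%, 85.1% and 100% of it covered by H3K27ac and 28.2%, 45.4% and 18.4% by H3K4me1. The H3K27ac peak there ranked at the 87.4th to 97.9th percentile of fold enrichment within its list and the H3K4me1 peak at the 39.3rd to 42.8th. The upstream flank, which holds no other promoter, was covered to 12.7 ± 2.61% and 12.5 ± 0.954% (SD, n = 3).

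Pde1a (ENSMUSG00000059173.19, chr2:79834453-80129458, minus strand) encodes a calcium and calmodulin-dependent enzyme that hydrolyses both nucleotides. H3K4me1 covered 13.4%, 15.3% and 12.4% of the body and H3K27ac 13.1%, 6.25% and 6.0%. H3K27ac replicate 1 lay within the range of H3K4me1 and the other replicates lay below it (exact permutation p = 0.2). The outermost start window was covered over 87.0%, 51.3% and 70.7% by H3K4me1, while H3K27ac was in replicate 3 only, over 7.12%. The internal starts 202 and 221 kb inward had 1 H3K27ac peak between them and no H3K4me1 peak. H3K4me1 lay in the middle of the gene, with parts 2 and 3 of 4 covered to 26 ± 1.87% and 20.3 ± 3.35% (SD, n = 3), against 4.34% and 4.15% in parts 1 and 4. For H3K27ac part 2 was the highest in each list, at 17.9 ± 11.2%, and part 3 had 7.26 ± 0.637% (SD, n = 3), which in replicate 1 was below parts 1 and 4. With no start window marked by H3K27ac in more than 1 list, Pde1a had 13 intragenic regions covered by both marks, each in at least 2 of 3 replicates. The longest of them, chr2:80037434-80040006, held 572 exon bases. No stronger H3K27ac peak was found at the locus in any replicate, and stronger H3K4me1 peaks numbered 2, 0 and 1.

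Pde4b (ENSMUSG00000028525.16, chr4:102087543-102607259, plus strand) and Pde4d (ENSMUSG00000021699.17, chr13:108449948-109953461, plus strand) encode cAMP-specific enzymes with long and short isoforms from many starts. In Pde4b, H3K4me1 covered 9.06%, 8.63% and 9.41% of the body and H3K27ac 5.32%, 5.64% and 4.07%, without overlap (exact permutation p = 0.1, adjusted p = 0.225). The outermost start (Pde4b-208) had 1 H3K4me1 peak and no H3K27ac peak, and part 1 of 4 of the gene was covered to 0.663 ± 1.15% by H3K27ac and 0.455 ± 0.404% by H3K4me1 (SD, n = 3). Part 4 was covered to 13.0 ± 4.94% and 23 ± 1.93%. It holds 3 start windows, of which Pde4b-203, 483 kb inward, was marked in all 6 lists and Pde4b-201 and Pde4b-202 in 2 H3K27ac and 3 H3K4me1 lists each. The H3K27ac peak at Pde4b-203 ranked at percentile 95.3 to 99.7 of its list by fold enrichment. Pde4b-206, 167 kb inward, carried H3K4me1 in 3 lists and H3K27ac in 1, and the pooled H3K4me1 peak there (chr4:102252900-102254653, fold enrichment 2.60) was at percentile 99.7 of its list.

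In Pde4d, the longest gene at 1504 kb, H3K4me1 covered 14.3%, 15.4% and 13.2% of the body and H3K27ac 14.8%, 10.6% and 8.50%, with overlap through H3K27ac replicate 1 (exact permutation p = 0.3). The stronger peaks alone covered means of 2.42% and 1.57%, without overlap. Of its 11 start windows, 5 were marked in all 6 lists: Pde4d-218, Pde4d-205, Pde4d-201, Pde4d-207 and Pde4d-204, which lie 606, 788, 1032, 1249 and 1271 kb inward of the first coding start. The 3 windows before them (Pde4d-209, Pde4d-220 and Pde4d-208) had an H3K27ac peak in 1, 1 and 0 lists, both of those in replicate 2. The last, Pde4d-219, had none. Pde4d-218 and Pde4d-201 were covered over 100% of the window in each H3K27ac list, with fold enrichment at percentile 88.4 to 94.0 and 90.9 to 98.4. Parts 3 and 4 of the gene were covered to 14.9 ± 3.96% and 17.2 ± 2.68% by H3K27ac and to 18.5 ± 2.52% and 23.7 ± 2.06% by H3K4me1 (SD, n = 3). Part 2 had 4.18 ± 3.5% and 4.52 ± 0.624%. The highest pooled H3K27ac peak (chr13:109229137-109231181, fold enrichment 2.5) and the highest pooled H3K4me1 peak (chr13:109276680-109280063, fold enrichment 2.67) lay on either side of Pde4d-218.

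**Figure D2:**
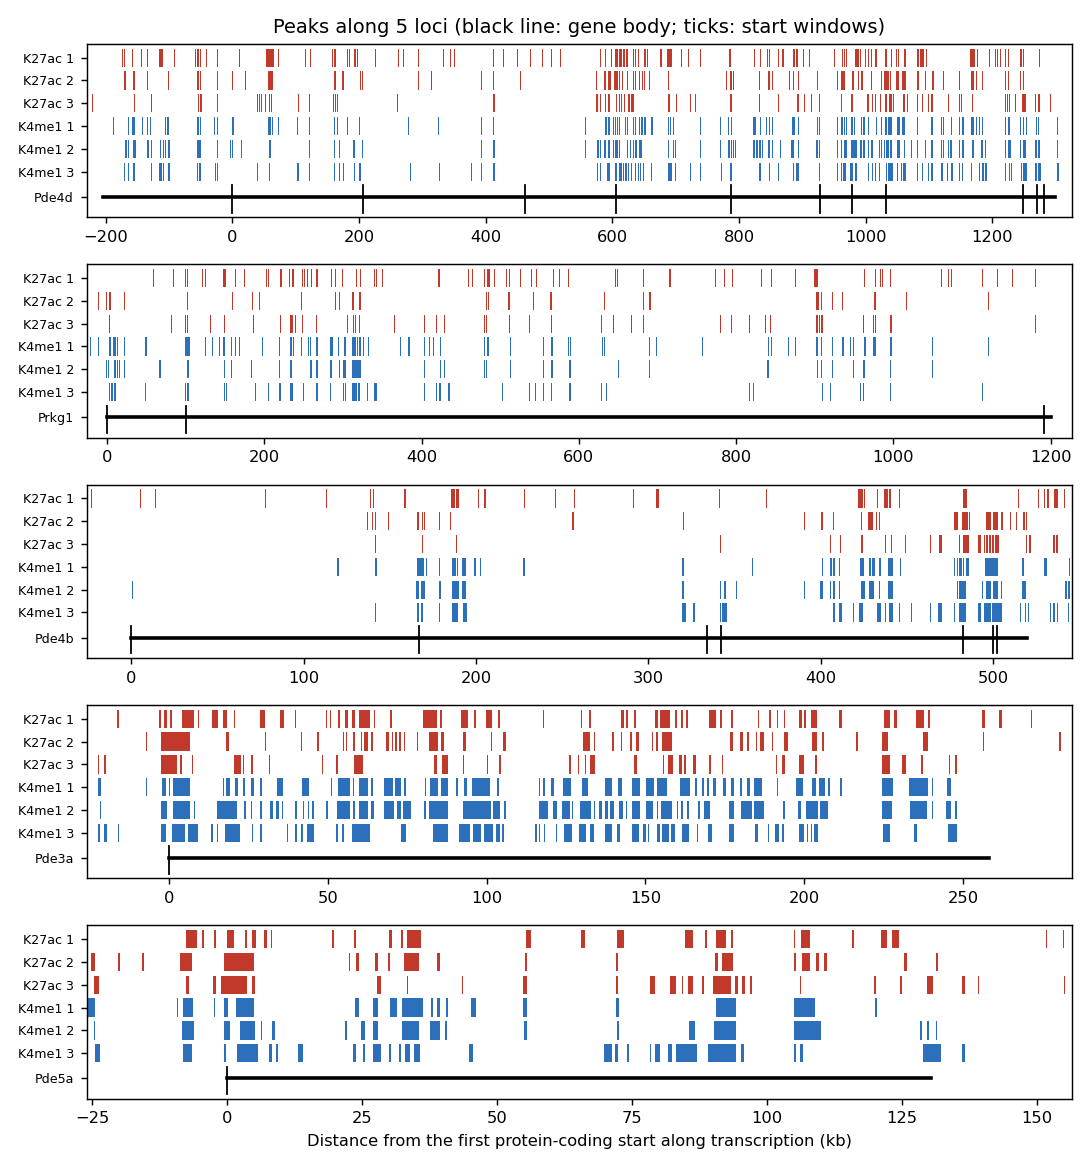
Peaks along Pde4d, Prkg1, Pde4b, Pde3a and Pde5a, by distance from the first protein-coding start along transcription (kb); each row is a replicate list (H3K27ac red, H3K4me1 blue), the black line the gene body with 25 kb of flank beyond it, and ticks the start windows. Part 4 of 4 of Pde4b, with starts from 483 kb on, is covered to 13.0% and 23% by H3K27ac and H3K4me1, and in Pde3a H3K4me1 runs along the gene.

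Counted by gene, 7 of the 9 had a promoter peak in all 3 H3K27ac lists and 8 in all 3 H3K4me1 lists (77.8% and 88.9%), against 45.9% and 27.9% of all protein-coding genes. A peak in all 6 lists was found for 7 (77.8%, against 24.3%), and a gene with none in any list was not among them (0.00%, against 32.8%). With stronger peaks only, the counts were 5 of 9 for H3K27ac and 2 of 9 for H3K4me1, so that the order of the marks turned, against 30.2% and 5.03% of all protein-coding genes. With windows of 250 bp they were 5 and 4, against 39.0% and 12.5%. A gene with more starts has more windows in which a peak can fall. Counted by start window, 11 of 32 were marked in all 3 H3K27ac lists (34.4%, against 35.0% of all 30934 windows), 17 in all 3 H3K4me1 lists (53.1%, against 21.7%), 8 in all 6 (25%, against 17.4%) and 3 in none (9.38%, against 40.7%). The H3K27ac share was thus near the background by window. Internal starts had H3K4me1 in all 3 lists at 14 of 23 windows (60.9%), and first coding starts at 3 of 9 (33.3%). For H3K27ac these were 7 of 23 (30.4%) and 4 of 9 (44.4%). Pde4b and Pde4d held 5 and 8 of the 17 H3K4me1 windows. The windows of all protein-coding genes were not split in this way. Of the 7 genes with a promoter peak in all 6 lists, only Pde3a, Pde4b, Pde4d and Pde5a reached it at a single window, and Prkg1, Prkaca and Adcy6 reached it through different starts in different lists. With stronger peaks only, 6 windows were marked in all 3 H3K27ac lists (Pde4b-203, Pde4d-218, Pde4d-201, Pde5a-201, Prkaca-201 and the Adcy6 start 2.44 kb inward), against 2 in all 3 H3K4me1 lists (down from 17). Of all start windows 22.2% and 3.53% met these conditions. The same 2, Pde4b-203 and Pde4d-201, were also the ones marked in all 6 lists (against 2.45% of all start windows).

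**Figure D3:**
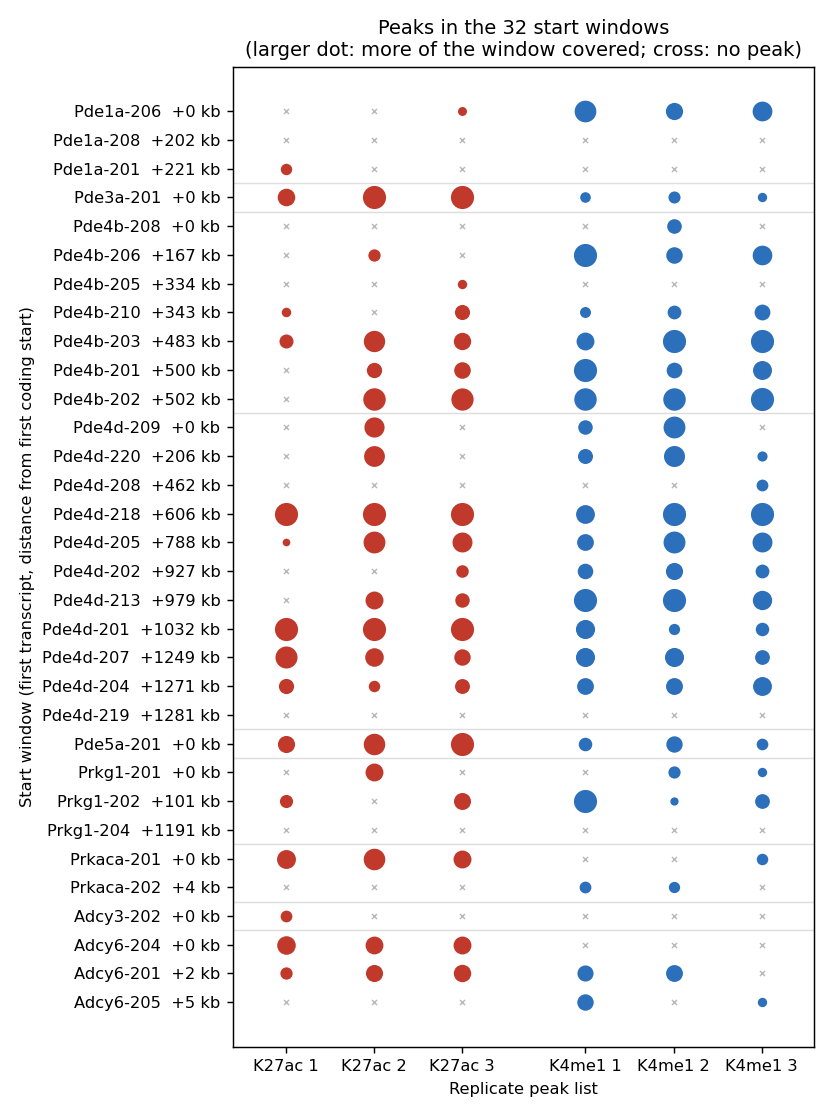
The 32 start windows (vertical axis, first transcript and distance from the first coding start of its gene) in the 6 replicate lists (horizontal axis). A larger dot means more of the window covered by peaks and a cross no peak; Pde4d-218 and Pde4d-201 are fully covered in each H3K27ac list, and the outermost Adcy6 start has 3 H3K27ac and 0 H3K4me1 peaks.

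The marks were then compared over all 9 genes with 1 value per list. H3K4me1 covered 13.3%, 13.3% and 11.5% of the gene bodies and H3K27ac 11.5%, 7.92% and 6.75%. The means were 12.7 ± 1.02% and 8.71 ± 2.46% (SD, n = 3), and the lists did not overlap, although H3K27ac replicate 1 and H3K4me1 replicate 3 were nearly level. By an exact permutation test p = 0.1, which is as low as 3 lists against 3 allow, so that no comparison here can reach 0.05, and the adjusted p over 7 measures was 0.233. The difference of H3K27ac minus H3K4me1 was -3.97 percentage points in all, -5.35 among the lists called against IgG replicate 2 and -4.75 among those called against IgG replicate 3. With stronger peaks only it was -0.588 (1.03% against 1.61%). With bodies taken from protein-coding transcripts alone it was -3.89, and the lists overlapped (exact permutation p = 0.2). Every H3K4me1 list was above every H3K27ac list in 4 of the 9 gene bodies (Pde3a, Pde4b, Pde5a and Adcy3). The background was 10.7% of all protein-coding genes and 30.1% of those of at least 50 kb, a length that 7 of the 9 exceed. The reverse, every H3K27ac list above every H3K4me1 list, held in 0 of the 9, against 11.2% of all protein-coding genes and 5.44% of those of at least 50 kb. Which genes separated depended on the peaks kept. From stronger peaks, H3K4me1 was above in Pde3a, Pde4b, Pde4d and Prkg1 (4 of 9, against 5.59% of all and 18.7% of long genes), and H3K27ac was above in Adcy6 (1 of 9, against 14.9% and 8.16%). With peaks of at least 5 times the mean coverage, H3K4me1 was above in 7 of 9, all but Prkaca and Adcy6 (against 15.5% and 47.6%), and H3K27ac in 0 (against 9.88% and 2.93%). Pde3a and Pde4b were the genes that separated under each of the 3 thresholds, at differences of -1.71 and -0.598 points with stronger peaks (from -18.4 and -4.03).

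Relative to all protein-coding gene bodies, the 9 were covered 1.40, 1.25 and 1.19 times as much by H3K27ac and 1.50, 1.52 and 1.37 times as much by H3K4me1 in replicates 1, 2 and 3. The ranges of the marks overlapped (exact permutation p = 0.2). Against genes of over 50 kb alone the ratios were 1.49, 1.42 and 1.36 for H3K27ac and 1.49, 1.49 and 1.35 for H3K4me1 (exact permutation p = 0.8). With all peaks, each replicate list thus covered these genes more than long genes in general. Among stronger peaks the direction turned for both marks. The ratios to all gene bodies were then 0.429, 0.498 and 0.494 for H3K27ac and 0.807, 0.550 and 0.585 for H3K4me1, and those to long genes were 0.667, 0.801 and 0.806 for H3K27ac and 0.848, 0.580 and 0.614 for H3K4me1. In the pooled H3K27ac call, the ratio to all genes was 0.964.

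The peaks at the 9 loci numbered 549, 358 and 371 for H3K27ac and 479, 391 and 379 for H3K4me1, or 0.359% to 0.396% of each list. Of these, 87.6% to 90.8% were intragenic, 3.46% to 6.86% lay in a start window and 3.84% to 6.47% in the flanks. The gene bodies, 4.03 Mb in total, make up most of these loci, and no background was computed for these shares of peaks. The counts did not separate the marks (exact permutation p = 1). The H3K4me1 peaks were wider, with medians of 801, 937 and 860 bp against 611, 610 and 549 bp (exact permutation p = 0.1, adjusted p = 0.233), and the difference of H3K27ac minus H3K4me1 was -259 and -311 bp within IgG replicates 2 and 3. Among stronger peaks it was -17.7 bp (exact permutation p = 0.9), against -276 bp among all peaks. H3K4me1 peaks touched 65.6%, 68.8% and 65.6% of the start windows and H3K27ac peaks 46.9%, 56.2% and 59.4% (exact permutation p = 0.1, adjusted p = 0.233). The difference was -10.9 and -6.25 points within IgG replicates 2 and 3. With stronger peaks only, H3K27ac was 3.13 points higher (exact permutation p = 0.4). The flanks were covered to 5.38 ± 0.998% by H3K27ac and 4.15 ± 0.840% by H3K4me1 (SD, n = 3, exact permutation p = 0.2). That difference of 1.23 points was 0.119 outside other genes, 0.239 with flanks of 50 kb and 2.11 with stronger peaks only (exact permutation p = 0.1).

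**Figure D4:**
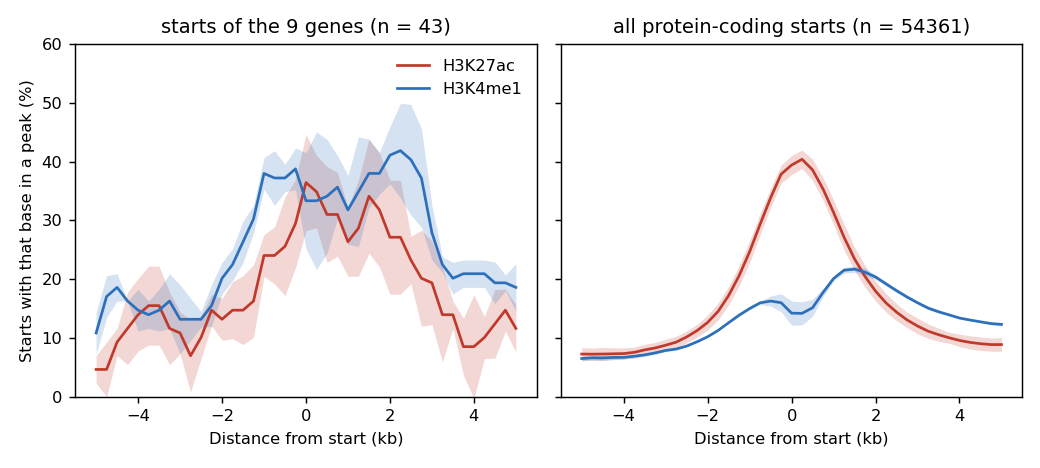
Share of start sites whose base at a given distance (kb, horizontal axis) lies in a peak (percent, vertical axis), for the 43 starts of the 9 genes and 54361 starts of all protein-coding genes. Lines are means of 3 lists and bands the SD; at the start itself H3K4me1 covers 33.3% of the starts of these genes against 14.2% of all.

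At the base of the start site, H3K27ac covered 36.4 ± 8.17% of the 43 starts and H3K4me1 33.3 ± 8.17% (SD, n = 3). Over all 54361 protein-coding starts the values were 39.4 ± 1.62% and 14.2 ± 2.05%. H3K4me1 was thus higher at the starts of these genes than at all starts in each list, at 41.9%, 32.6% and 25.6% against 16.4%, 13.9% and 12.4%, while H3K27ac was lower in replicates 1 and 3 and higher in replicate 2. Stronger peaks of H3K4me1, a limit chosen here after seeing the data, covered 14%, 9.30% and 9.30% against 4.99%, 3.91% and 4.19%, and those of H3K27ac were lower in each list, at 11.6%, 23.3% and 23.3% against 33.4%, 32.6% and 30.2%. Many of these starts belong to the same genes and some lie close together, so they are not independent.

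Sequence covered by both marks, each in at least 2 of 3 replicates, was found in 220 regions at the 9 loci. There were 101 in Pde4d, 38 in Pde3a, 35 in Prkg1, 15 in Pde5a, 13 in Pde1a, 11 in Pde4b, 4 in Adcy6, 2 in Adcy3 and 1 in Prkaca. Per 100 kb of locus, Pde3a had 12.3, Pde5a 8.31 and Pde4d 6.50, while Prkg1 had 2.80 and Pde4b 1.93. Of the 220, 197 were intragenic, 16 in start windows and 7 in flanks. The intragenic share was 89.5%, against 70.4% at the loci of genes of at least 50 kb and 44.1% at those of all protein-coding genes. Among the intragenic regions 192 (97.5%) held no exon base, and 170 (86.3%) were over 10 kb from any protein-coding start of their gene, with a median length of 422 bp. Of the H3K27ac bases at these loci 67.4% were also covered by H3K4me1, and of the H3K4me1 bases 33.4% by H3K27ac. At the loci of all genes of at least 50 kb these shares were 60.9% and 34.1%, and at those of all protein-coding genes 50.7% and 40.0%, where overlapping loci count once per gene. The 9 loci held 4.91 regions per 100 kb, against 3.08 at long genes and 3.11 at all. Of the intragenic regions of long genes 91.8% held no exon base and 76.1% were over 10 kb from a start, with a median length of 437 bp. The H3K4me1 share and the length were thus near those of long genes. Repeats, soft-masked in the reference, made up 16.5% of the double-marked bases and 26.8% of the gene bodies.

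The count of such regions depended on the peaks kept. It was 62 when all 3 replicates of each mark had to cover the sequence, and 10 with stronger peaks only. The 10 came to 0.223 regions per 100 kb, against 0.344 at long genes and 0.488 at all, so that the order turned. They were 6 in Pde4d, 2 in Pde3a and 1 each in Pde4b and Adcy6. Of these, 4 were in start windows (Pde4d-218, Pde4d-201, Pde4b-203 and the Adcy6 start 2.44 kb inward) and 6 were intragenic. The longest intragenic one was chr13:109820456-109822982 in Pde4d, 81.4 kb from the nearest start.

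As examples, the centre of 5 such regions is given as 300 bases, all outside exons, of the plus strand of GRCm38.p6. They do not stand for double-marked regions in general. The Pde3a region and the first Pde4d region lie in the highest pooled H3K4me1 peak of their gene (fold enrichment 2.51 and 2.67, percentile 99.4 and 99.8) and are among the 10 above. The printed bases of the first Pde4d region were covered whole in replicates 1 and 2 of each mark, and over 35 and 234 of 300 bases in replicate 3 of H3K27ac and of H3K4me1. The others are the longest double-marked intragenic regions of Pde4d (3244 bp), Pde4b (1252 bp) and Pde5a (2837 bp), whose printed bases were covered over at least 278 of 300 in all 6 lists. Capitals mark a CRE core or, in the other Pde4d region, a CArG box, the motif of the serum response factor that drives smooth muscle genes. The Pde3a region holds none of the motifs in capitals.
Pde3a intron, chr6:141311184-141311483, plus strand: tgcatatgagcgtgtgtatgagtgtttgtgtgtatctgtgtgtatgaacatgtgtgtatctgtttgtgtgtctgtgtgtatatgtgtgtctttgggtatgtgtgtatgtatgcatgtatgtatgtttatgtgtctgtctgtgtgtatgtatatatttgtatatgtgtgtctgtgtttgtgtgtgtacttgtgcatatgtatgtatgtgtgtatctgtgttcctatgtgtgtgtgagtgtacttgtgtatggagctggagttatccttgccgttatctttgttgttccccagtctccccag
Pde4d intron, first region, chr13:109278488-109278787, plus strand: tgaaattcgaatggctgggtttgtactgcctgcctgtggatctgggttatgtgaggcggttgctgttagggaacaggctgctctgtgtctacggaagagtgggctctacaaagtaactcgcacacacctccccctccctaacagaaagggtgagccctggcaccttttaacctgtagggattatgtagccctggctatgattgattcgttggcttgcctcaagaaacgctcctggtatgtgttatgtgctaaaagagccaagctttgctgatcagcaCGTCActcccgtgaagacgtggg
Pde4d intron, other region, chr13:109715309-109715608, plus strand: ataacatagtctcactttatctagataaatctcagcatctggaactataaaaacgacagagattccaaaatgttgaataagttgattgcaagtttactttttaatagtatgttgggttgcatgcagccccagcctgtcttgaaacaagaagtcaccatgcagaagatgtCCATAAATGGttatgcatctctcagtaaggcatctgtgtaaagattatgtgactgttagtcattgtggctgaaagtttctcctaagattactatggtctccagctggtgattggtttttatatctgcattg
Pde4b intron, chr4:102511279-102511578, plus strand: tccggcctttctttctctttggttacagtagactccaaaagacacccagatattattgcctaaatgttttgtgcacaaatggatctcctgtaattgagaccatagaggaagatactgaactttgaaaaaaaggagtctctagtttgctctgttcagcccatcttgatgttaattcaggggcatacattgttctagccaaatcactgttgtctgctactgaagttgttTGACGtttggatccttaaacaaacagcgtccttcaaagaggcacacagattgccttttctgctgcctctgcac
Pde5a intron, chr3:122820685-122820984, plus strand: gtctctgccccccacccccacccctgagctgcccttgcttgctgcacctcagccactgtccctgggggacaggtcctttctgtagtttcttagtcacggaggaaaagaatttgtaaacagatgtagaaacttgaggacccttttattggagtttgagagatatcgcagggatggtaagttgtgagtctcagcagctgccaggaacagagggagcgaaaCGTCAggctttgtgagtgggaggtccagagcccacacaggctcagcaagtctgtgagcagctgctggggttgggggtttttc

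The Pde3a stretch was 88.3% soft-masked, largely a TG repeat, and was covered in 5 of the 6 lists. The part of the repeat in this signal was not tested. The other 4 stretches were 0% to 16.3% soft-masked. Among the longest double-marked intragenic regions, of which 7 genes had one, 2 of 7 centres held a CRE core (Pde4b and Pde5a), against 11.2% of 64817 centres of pooled H3K27ac peaks, and 1 of 7 a CArG box (against 1.67%). Of these 7, only the centres with a CRE core or a CArG box are printed. Those of Pde1a, Pde3a, Prkg1 and Adcy6 held neither. The Adcy6 centre held AP-1, GC box and TEAD motifs. The Pde4d region with the CArG box lay 29.3 kb from the nearest start, its 300 bases covered in full in every replicate of either mark.

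The rest of the pathway was taken from a list of 59 genes. A promoter peak in all 3 H3K27ac lists was found for 37 (62.7%, against 45.9% of all protein-coding genes) and in all 3 H3K4me1 lists for 31 (52.5%, against 27.9%). When stronger peaks were kept, 20 were left for H3K27ac (33.9%, against 30.2% of all, and so near the background) and 10 for H3K4me1 (16.9%, against 5.03%). With windows of 250 bp there were 28 (47.5%, against 39.0%) and 18 (30.5%, against 12.5%). With all peaks and the wider windows, both held for 25 (42.4%, against 24.3%), and 5 had no promoter peak in any list (8.47%, against 32.8%). Among the regulators of protein kinase A, all 5 subunit genes had H3K27ac in every list, and Prkacb, Prkar1a, Prkar2a and Prkar2b had both marks in every list. All 6 CREB family and coactivator genes had H3K27ac in every list, and Creb1, Crem, Atf1 and Crtc2 both marks. Judged by stronger peaks, 4 of 5 subunit genes and 4 of 6 CREB genes had H3K27ac in every list. With all peaks, both marks in every list were also found for 2 of 3 kinase inhibitors (Pkia and Pkig), 2 of 6 anchors (Akap11 and Akap13) and 2 of 4 G protein alpha subunits (Gnas and Gnai2). Of these, Pkig and Akap13 kept both marks with stronger peaks only. With all peaks, the anchor Akap5 had no peak in any list, and Akap6 had H3K27ac in 1.

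On the cGMP side, none of the 4 guanylate cyclase genes had a promoter peak in all 3 lists of either mark: the nitric oxide receptor subunits Gucy1a1 and Gucy1b1 had 1 and 1 of 3 H3K27ac and 0 and 2 of 3 H3K4me1 lists, Gucy1a2 had 2 and 1, and the intestinal receptor Gucy2c had none. Among natriuretic peptide receptors Npr2, the receptor of C-type natriuretic peptide, had both marks in all lists, Npr1 had 2 and 0, and Npr3, the clearance receptor, 1 and 3. Prkg2 had 1 and 2. Of 3 kinase substrates, Mrvi1, which limits calcium release under cGMP, had both marks in every list, and Ppp1r12a and Vasp had H3K27ac in all 3 lists and H3K4me1 in 2 and 0. With stronger peaks only, Npr2, Ppp1r12a and Vasp kept H3K27ac in every list, and Mrvi1 kept neither mark.

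Among the 13 other phosphodiesterases, Pde1c, Pde3b, Pde4a, Pde7a, Pde7b and Pde9a had both marks in all lists (46.2%, against 24.3% of all protein-coding genes). Pde2a and Pde11a had no promoter peak in any list. Of the 8 other adenylyl cyclases Adcy4, Adcy7 and Adcy9 had both marks in all lists (37.5%, against 24.3% of all protein-coding genes). Adcy1, known from brain, had none, and Adcy8 had H3K4me1 in 3 lists and no H3K27ac. Adcy5 had H3K27ac in 3 lists and H3K4me1 in 1. Adcy3, in contrast, had H3K27ac in 1 list and H3K4me1 in 0. With stronger peaks only, 0 of the 8 other adenylyl cyclases had either mark in all lists. Of the 13 phosphodiesterases, 1 (Pde9a, 7.69%) then had H3K27ac and 3 (Pde4a, Pde7b and Pde9a, 23.1%) had H3K4me1 in all lists. The shares of all protein-coding genes at this limit were 30.2% for H3K27ac and 5.03% for H3K4me1.

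**Figure D5:**
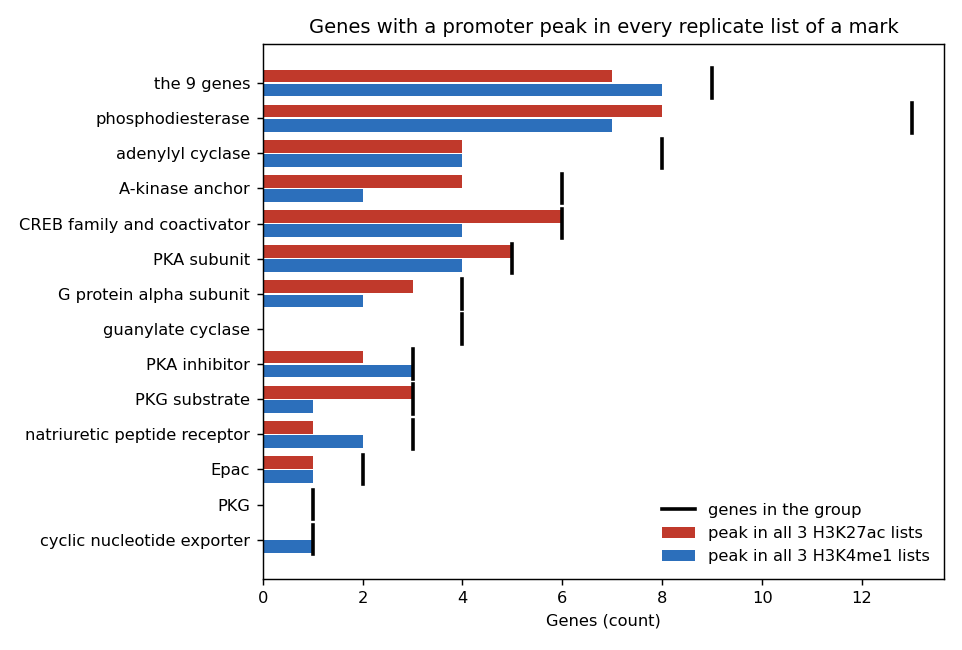
Number of genes (horizontal axis) with a promoter peak in all 3 H3K27ac lists (red) and all 3 H3K4me1 lists (blue), for the 9 genes and for 59 other pathway genes by role; the black line is the size of the group. All 6 CREB family and coactivator genes and all 5 kinase A subunit genes reach it for H3K27ac, and none of the 4 guanylate cyclases for either mark.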

How the data were processed

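The peaks of 2 histone marks were analysed, 1 list per replicate and 1 pooled list per mark. The submitters' processing notes name cutadapt, Bowtie2 and MACS2, without versions. Per the file headers, the authors called broad peaks with MACS 2.2.7.1 against IgG, scaling the larger library to the smaller. The deposited pileup is a coverage signal averaged over each region, and the deposited fold enrichment is a ratio of pileup to local background. The deposited p-values are given as −log10, and the q-values were not used. These values served only to rank or filter peaks within a list. The paper at hand does not describe these libraries, and further upstream steps are not given in the sources used here.

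Gene models were GENCODE release 21 on GRCm38. Overlap meant at least 1 bp. Marks were compared with a two-sided exact permutation test of 1 value per list (20 possible assignments), with Benjamini-Hochberg adjustment over 7 measures or 9 genes. Counts of marked genes, windows or regions were not tested. Interval computations were tested on simulated data, and 0 of 800 differed from a count base by base. The genes, the lists and the tests were chosen with earlier results of these data known. Named are the 9 genes and their start windows, pathway genes with a promoter peak in all 6 lists or none, and for each gene the longest double-marked intragenic region and the highest pooled peaks. Other pathway genes and the 10 regions of stronger peaks were named after their values were seen. Sequences and isoform names are RefSeq's (GRCm38.p6). Alternatives varied the window, flank, gene body definition, peak threshold, replicates, replicate block and IgG library. Python 3.11.15, numpy 2.4.6 and pandas 2.3.3 were used.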

Additional observations from a re-analysis of the deposited data

How the results depend on the processing

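With stronger peaks only (−log10 p from 1.3), the difference of H3K27ac minus H3K4me1 reversed to 3.13 points for start windows with a peak, to 6.12 points for the promoter share of the peaks and to -5.67 for the number of peaks. The genes with a promoter peak in all 3 H3K4me1 lists fell to 2 of 9, the pathway genes to 20 for H3K27ac and 10 for H3K4me1, the double-marked regions to 10, and, in an alternative chosen after seeing the data, the start windows to 6 for H3K27ac, 2 for H3K4me1 and 2 for all 6 lists. With peaks of at least 5 times the mean coverage, the promoter share differed by 1.34 points and the number of peaks by -141. With a peak over at least 50% of the window, start windows differed by 3.13 points. Windows of 250 bp left 4 of 9 genes and 18 pathway genes with H3K4me1, and the pooled call gave 49 pathway genes. Coverage in all 3 replicates of each mark left 62 double-marked regions. The pooled call asks for a peak in 1 list in place of 3, and the other settings admit fewer peaks or bases; other causes were not tested.

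Within lists called against IgG replicates 2 and 3, the number of peaks differed by -77.0 and -8.00. Leaving out 1 replicate moved that difference between -51.8 and 43.7, and the number of double-marked regions between 122 and 189, with 136, 122 and 134 regions without H3K27ac replicates 1, 2 and 3, where coverage is then required in both others. The difference in covered gene body ranged from -5.35 to -2.99 points over left-out replicates, and was -0.588 with stronger peaks and -6.49 with peaks of at least 5 times the mean coverage. Relative to long genes with stronger peaks, an alternative chosen after seeing the data, coverage by H3K27ac minus H3K4me1 reversed to 0.0771. The flank difference was 0.363 with the coverage filter. For the body of Adcy6 the range over left-out replicates was -0.0680 to 5.75 points, the lowest without H3K4me1 replicate 3. With the replicate number as a block, the difference in covered gene body was -3.97 points (replicate block, exact sign-flip permutation p = 0.25, the smallest that 3 pairs allow); no test passes 0.05 with or without the block. Deviations of same-numbered lists across long genes correlated at -0.111, 0.284 and 0.401, so the numbers were not taken to pair the samples; the last 2 pairs also share an IgG library. Of 198 alternative values of a difference, 185 kept its sign, 51 of them at a size over 1.5 times larger or smaller, and 13 reversed. The 185 include the replicate-block values, which equal the main values, so that their sign was fixed in advance. Since no test here can pass 0.05, a kept call says nothing about stability. Of 64 counts, 50 stayed within 1.5 times. The IgG libraries, at most 3713369 fragments, limit the depth of every call.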
